A study of Caenorhabditis elegans with 2 samples.

Results

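The one-directional coding promoter peaks are 560 of the 1839 nuclear peaks that passed the irreproducible discovery rate (IDR) step in a ChIP-seq map of SNPC-4 from whole *Caenorhabditis elegans* larvae. Each has its summit within 500 bp of an annotated 5' end of a protein-coding transcript, and no snRNA, snoRNA, tRNA, miRNA, piRNA or SL RNA gene within 250 bp. None stands between a pair of coding genes that run away from each other, with a minus-strand 5' end within 1000 bp to the left and a plus-strand one within 1000 bp to the right. The other nuclear IDR peaks were 348 at such divergent coding promoters, 707 away from coding 5' ends and 224 beside a small RNA gene. The choice used position only and no signal value beyond passing the IDR list.

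Both samples, 2 biological replicates of 1 group, were mixed-sex L2 larvae of strain OP179, unc-119(ed3) III; wgIs179, and eGFP-tagged SNPC-4 was precipitated from whole organisms. Both carried the mutation and the inserted transgene, and no untagged or wild-type sample was analysed here. The protein mapped is therefore a tagged copy, and tissues of the whole animal are mixed. Peaks were called by the authors against a control alignment, and only peak lists were used, so the sequencing depth is unknown. A peak's signal is the strength given by the authors' peak caller, on a scale that may differ between lists, and is compared here only between peaks of 1 list. The IDR list held the strongest candidates of the pooled reads, 6.14% of the nuclear candidates, so a higher signal than in other candidates is fixed by the list. Intervals are exact (Clopper-Pearson) 95% intervals of counts of peaks or genes and cover counting only, and no test between samples was possible with 1 group.

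SNPC-4 belongs to SNAPc, the complex that activates small nuclear RNA genes. It binds a proximal sequence element upstream of snRNA genes, where it helps recruit RNA polymerase for transcription of spliceosomal RNAs and, in worms, of the spliced leader RNAs. In worms the first stretch of many messenger RNAs is replaced by a spliced leader during trans-splicing. An annotated 5' end may then be a splice acceptor and not the place where transcription started. Genes that follow each other closely on a strand may share 1 promoter as an operon.

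A small share of the members held letters like those under the peaks beside snRNA genes. These are shown first because 3 of the 12 strongest members hold them. The pattern was the word CGGAACCC, then any 6 bases, then TGTCGG, read on either strand within 50 bp of the summit with at most 3 of its 14 letters changed. It was read off the peaks within 250 bp of genes annotated as snRNA, where 36 of 51 held it (70.6%). Its form and tolerance were chosen after the sequences were seen. Sequences are from the RefSeq genome on WBcel235, the assembly of ce11, 101 bases centred on the summit and read 5' to 3'. Capitals mark letters equal to the pattern. The first line is a comparison from a peak beside a copy of R07E5.16, a name that several snRNA genes share in the annotation (chrIII:10989573-10989673, plus strand). The others are members, at chrII:5599653-5599753 for C17G10.10, chrV:11176815-11176915 for gpa-1, chrV:9392104-9392204 for hum-2 and chrII:12383301-12383401 for btb-14, all on the plus strand, and chrII:4299354-4299454 for sco-1 on the minus strand.
R07E5.16: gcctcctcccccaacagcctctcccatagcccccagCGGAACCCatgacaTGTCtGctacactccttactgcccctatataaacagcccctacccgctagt
C17G10.10: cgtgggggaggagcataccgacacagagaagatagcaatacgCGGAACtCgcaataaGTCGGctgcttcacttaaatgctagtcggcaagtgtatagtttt
gpa-1: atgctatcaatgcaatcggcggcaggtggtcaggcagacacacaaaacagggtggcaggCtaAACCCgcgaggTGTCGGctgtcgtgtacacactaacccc
hum-2: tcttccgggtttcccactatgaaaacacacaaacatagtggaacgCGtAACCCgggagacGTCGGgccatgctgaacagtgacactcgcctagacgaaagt
btb-14: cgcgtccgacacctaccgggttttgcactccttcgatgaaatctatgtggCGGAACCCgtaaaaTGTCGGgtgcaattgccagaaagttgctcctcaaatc
sco-1: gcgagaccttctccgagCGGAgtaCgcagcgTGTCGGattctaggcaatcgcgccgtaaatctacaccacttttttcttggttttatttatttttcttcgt

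Among the members 20 of 560 held this pattern (3.57%, interval 2.19 to 5.46), 8 of them with every letter. The share was 1.44% of divergent IDR peaks (5 of 348), 1.30% of the one-directional candidates outside the IDR list (85 of 6553) and 20.1% of IDR peaks away from coding 5' ends (142 of 707). In windows of the same length upstream of all 19973 nuclear coding genes it was 0.365%. These promoter windows were centred at a fixed -174 bp from the outermost 5' end, while member windows follow the summit, so the 2 are not like for like. A match is a description of letters and was not tested as a binding site. The 20 members had a median pooled signal of 52.5, against 43.4 for the other 540, with ranges that overlapped. They included 3 of the 12 strongest members, 7 of the 100 strongest and 4 of the 100 weakest. Of the 20 summits 11 lay in introns, against 66 of the other 540, and 14 lay upstream of the nearest 5' end. The pattern pointed in the direction of the coding gene in 9 of the 20.

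The signal at these members spanned nearly the whole member range. C17G10.10, a gene with a sequence name only, had the highest member signal at 1054 in the pooled reads, 227 in replicate 1 and 831 in replicate 2. Its summit lay 327 bp upstream of the 5' end and 226 bp from C17G10.14, a noncoding RNA gene of no stated class. At gpa-1, which encodes a G protein alpha subunit, the signals were 339 pooled, 88.4 in replicate 1 and 250 in replicate 2, in an intron and 61 bp from the unclassified noncoding gene T19C4.16. At hum-2, an unconventional myosin heavy chain gene, they were 240, 48.0 and 191, with the summit 205 bp downstream of an internal 5' end. Each of these 3 was high in both replicates. btb-14, a BTB domain gene, had 124 pooled, 36.4 in replicate 1 and 87.5 in replicate 2, 112 bp upstream, with all 14 letters of the pattern. sco-1, whose product helps assemble cytochrome c oxidase, had 85.5, 15.2 and 72.2 with 3 letters changed. Weaker ones included unc-2, a voltage-gated calcium channel gene, at 33.4, and inx-13, a gap junction innexin gene, at 29.4, so the letters were present near the lowest member signal too. The others include rin-1 at 39.2, otpl-1 at 34.9 and several genes with sequence names only, from Y71G12B.23 at 92.8 to F59D12.3 at 28.1. All 20 had a peak in both replicates.

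A further strong member, cyp-13A2 of the cytochrome P450 family, held both words with 7 bases between them and so missed the pattern above, and is shown for that spacing (chrII:9787920-9788020, minus strand, capitals mark the words).
cyp-13A2: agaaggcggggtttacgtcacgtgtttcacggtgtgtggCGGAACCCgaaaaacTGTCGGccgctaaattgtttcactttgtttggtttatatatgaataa
Its signals were 266 pooled, 49.5 in replicate 1 and 215 in replicate 2, and the summit lay 341 bp upstream. The word CGGAACCC by itself was within 50 bp of the summit in 12 members (2.14%), 0 divergent peaks and 33.3% of the snRNA gene peaks.

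More members held another group of letters. The 8-base sequences that differed most in share between the members and the one-directional candidates outside the list, on either strand within 50 bp of the summit, were CTGCGTCT, AAACGCGC, GCTGGCGC and TTCTCTGC. Sequences whose ends overlapped a chosen one by 5 or more letters, on either strand, were joined to it. Shorter overlaps were allowed, so the 4 are not fully separate words. TTCTCTGC ends in CTGC, the first letters of CTGCGTCT, and GCTGGCGC ends in GCGC, the first letters of the reverse complement of AAACGCGC. They were read off these members, so their member and outside shares only describe that choice, and their number was set after the sequences were seen. Strong members with each sequence are shown because these letters differed most in share by that comparison, with capitals marking the sequence or its reverse complement. The windows are chrV:10897315-10897415 for sec-61.G, chrIV:15471568-15471668 for ntl-11 and chrV:9789951-9790051 for ztf-7 on the minus strand, and chrIV:5183818-5183918 for W03F8.4, chrX:15173656-15173756 for ucr-2.2, chrIV:17249862-17249962 for eelo-2, chrX:14480381-14480481 for gfi-3 and chrV:13565376-13565476 for slrp-1 on the plus strand.
sec-61.G: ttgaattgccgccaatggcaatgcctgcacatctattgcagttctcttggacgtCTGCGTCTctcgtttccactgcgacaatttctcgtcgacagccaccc
ntl-11: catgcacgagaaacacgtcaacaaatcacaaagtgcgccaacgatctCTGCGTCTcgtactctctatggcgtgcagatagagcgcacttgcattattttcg
W03F8.4: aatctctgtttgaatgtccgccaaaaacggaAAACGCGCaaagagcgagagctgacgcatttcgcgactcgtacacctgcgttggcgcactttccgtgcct
ucr-2.2: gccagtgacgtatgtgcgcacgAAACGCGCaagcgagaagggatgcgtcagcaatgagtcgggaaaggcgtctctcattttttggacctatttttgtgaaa
eelo-2: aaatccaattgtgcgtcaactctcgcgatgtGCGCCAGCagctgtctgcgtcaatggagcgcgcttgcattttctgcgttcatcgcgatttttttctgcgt
ztf-7: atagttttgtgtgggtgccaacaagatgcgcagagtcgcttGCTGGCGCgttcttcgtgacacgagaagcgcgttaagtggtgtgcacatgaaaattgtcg
gfi-3: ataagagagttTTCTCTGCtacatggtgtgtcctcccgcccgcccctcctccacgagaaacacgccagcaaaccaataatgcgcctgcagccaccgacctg
slrp-1: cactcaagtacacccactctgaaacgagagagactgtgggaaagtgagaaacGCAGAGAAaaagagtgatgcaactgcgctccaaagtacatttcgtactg

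CTGCGTCT was near 77 member summits (13.75%, interval 11 to 16.9), 8.05% of divergent peaks, 11.7% of IDR peaks away from coding 5' ends, 2.33% of outside candidates and 1.36% of all coding promoter windows. Its 78 matches had a median offset of -4.5 bp from the summit, and 56 lay within 25 bp. AAACGCGC was near 46 summits (8.21%), against 8.62% of divergent peaks, 1.13% of peaks away from coding 5' ends and 0.606% of promoter windows. GCTGGCGC was near 37 (6.61%), against 6.03% of divergent peaks and 0.250% of promoter windows. TTCTCTGC was near 35 (6.25%), against 4.31% and 0.781%. At least 1 of the 4 was near 159 members (28.4%, interval 24.7 to 32.3) and 21.3% of divergent peaks (17.1 to 25.9). The share was 15.7% of peaks away from coding 5' ends and 1.96% of snRNA gene peaks.

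None of the 20 members with the snRNA-type pattern held 1 of the 4 leading sequences, and none of the 12 strongest members did. Among the 100 strongest members 35 held one, and among the 100 weakest 25. The members with one had a median pooled signal of 45.4 and those without 42.9. They include sec-61.G, the gamma subunit of the channel for proteins entering the endoplasmic reticulum (113 pooled, 25.6 in replicate 1, 85.8 in replicate 2), ntl-11 of the CCR4-NOT deadenylase complex (96.3, 21.2 and 76.4) and ucr-2.2, a core subunit of respiratory complex III (89.0, 9.92 and 77.9). All 3 had a peak in both replicates. Member windows had a median GC content of 48.5%, divergent windows 47.5% and outside windows 33.7%. A run of 8 A bases only, or of 8 T bases only, was near 2.68% of member and 13.7% of outside summits. The part of this base composition in the sequence shares was not tested.

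**Figure D1:**
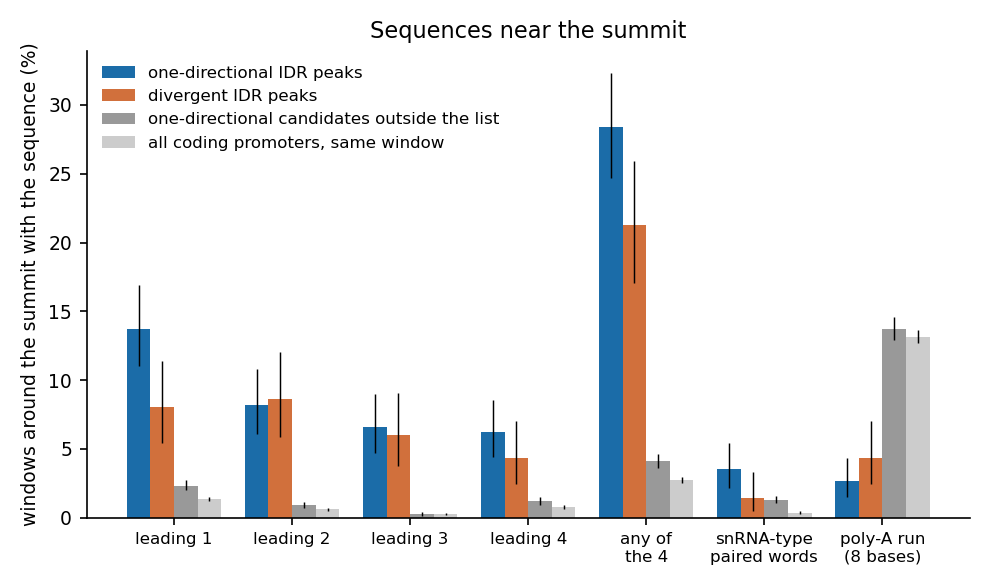
Percentage of 101 bp windows that held each sequence, with exact 95% intervals, for one-directional IDR peaks, divergent IDR peaks, one-directional candidates outside the list and all coding promoters. Promoter windows were centred at a fixed -174 bp from the outermost 5' end, the others on summits. Leading 1 to 4 are the sequences in the order of the text. The members reach 28.4% for any of the 4, divergent peaks 21.3% and all promoters 2.72%. The 4 were read off the members, so the member share describes that choice beside every other set.

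The nearest genes of the members included many for ribosomal proteins, translation, energy metabolism and protein turnover, and few chemoreceptor, F-box or C-type lectin genes. Several of these traits were shared by the 348 divergent peaks. By the same lists those were nearest to 8 large-subunit (13 for the members) and 5 small-subunit (7) ribosomal protein genes and 6 translation factor genes (8). For oxidative phosphorylation genes they had 6, as many as the members. For proteasome genes (7 against 5) and splicing factor genes (7 against 4) they had more. They were nearest to 2 chemoreceptor, 2 F-box and 0 C-type lectin genes, but also to 0 vacuolar ATPase and 1 mitochondrial import gene. The share of all coding genes nearest to a divergent peak is not given here, so these are counts only. The 560 peaks were nearest to 553 genes, 2.77% of the 19973 nuclear coding genes, and each share below is read beside that figure. A peak within 500 bp of a 5' end was assigned to the gene of the nearest one, and 20 members had a second gene in that window. Of the 560, 159 were nearest to a gene with a sequence name only. The lists were set by gene name with earlier results of these data known, and no list was tested. They hold only genes whose names matched, so they are not complete: the complex I genes ndus-8 (61.7) and nduf-11 (59.5), for example, were members on no list.

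Named cytosolic ribosomal protein genes were 13 of 50 for the large subunit (26.0%, interval 14.6 to 40.3) and 7 of 31 for the small subunit (22.6%, 9.59 to 41.1), and with a promoter window of 250 bp in place of 500 bp the 20 genes became 7. All 20 summits lay upstream, between 159 bp (rpl-24.2) and 438 bp (rpl-35), with a median of -296 bp against -169.5 bp for the other members. The strongest was rpl-3, a large-subunit protein, with 271 pooled, 61.3 in replicate 1 and 203 in replicate 2. rpl-35 had 181, 47.6 and 133, and rpl-11.2 had 106, 32.8 and 71.0. Among small-subunit genes rps-28 had 111, 39.0 and 71.6, rps-4 had 70.2, 13.3 and 56.1, and rps-24 had 52.4, 8.30 and 45.2. Every one of the 20 had a replicate 1 peak, and the pooled signals ran from 31.0 at rps-25 to 271 at rpl-3, with a median of 59.6 against 43.2 for the other members. The other 14, among them rpl-24.2 at 97.2, rpl-38 at 74.8, rpl-29 at 72.1 and the stalk protein gene rla-0 at 61.7, lay between 31.0 and 97.2, within the range of the remaining members. Genes for mitochondrial ribosomal proteins were 4 of 70 (5.71%, 1.58 to 14.0), an interval that includes 2.77%, led by mrpl-55 at 76.3 pooled, 16.4 in replicate 1 and 57.4 in replicate 2, with mrpl-28 at 76.3, 24.3 and 57.9 and mrps-16 at 53.2, 6.06 and 48.0.

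The letters TTTCAG stood directly before the nearest 5' end at 123 members (22.0%, interval 18.6 to 25.6) and at 11.6% of all 29314 annotated coding 5' ends. Among the 20 ribosomal protein members there were 9. The summits of these 123 members lay at a median of -235 bp, and those of the other 437 at -149 bp. All but 3 of the 123 lay upstream (120), with a median pooled signal of 48.5 against 42.4. The next gene on the same strand began within 500 bp of the end of the member's gene for 152 of the 553 genes (27.5%) and for 18.0% of all coding genes. Both traits were chosen after the data were seen.

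Translation factor genes were 8 of 42 (19.0%, interval 8.60 to 34.1). eif-3.B and eif-3.C, subunits of the initiation factor that binds the small ribosomal subunit, had 182 and 118 in the pooled reads. In replicate 1 eif-3.B had 48.9 and eif-3.C 19.3, and in replicate 2 they had 133 and 98.2. eif-2Bgamma, part of the exchange factor for initiation factor 2, had 74.9, 24.0 and 57.0. No tRNA synthetase gene was a member (0 of 31, which allows up to 11.2%, a range that includes 2.77%).

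Genes for energy metabolism and protein turnover were also above the 2.77% of all genes. Divergent peaks were nearest to as many oxidative phosphorylation and more proteasome genes, but to fewer genes of the other lists here. Of the listed nuclear genes of oxidative phosphorylation 6 of 45 were members (13.3%, 5.05 to 26.8), led by the cytochrome c oxidase subunits cox-5A (164 pooled, 42.1 in replicate 1, 122 in replicate 2) and cox-5B (118, 30.8 and 85.5). Mitochondrial import genes were 4 of 13 (30.8%, 9.09 to 61.4), among them the outer membrane receptor tomm-20 (87.2, 19.0 and 74.2), tin-9.1, a small carrier between the membranes (56.3, 10.2 and 43.5), and timm-17B.1 of the inner membrane translocase (31.2, 9.94 and 20.7). Vacuolar ATPase genes were 5 of 20 (25%, 8.66 to 49.1), with vha-15 at 60.8, vha-12 at 54.6 and vha-9 at 39.1, all subunits of the proton pump. Proteasome genes were 5 of 33 (15.2%, 5.11 to 31.9). They include rpt-1, an ATPase of the regulatory particle (154, 36.3 and 115), pas-5 of the core particle (126, 33.2 and 90.8) and the deubiquitinase rpn-11 (52.1, 10.4 and 42.6). Ubiquitin pathway genes were 6 of 54 (11.1%, 4.19 to 22.6), with the conjugating enzymes ubc-25 at 137 and ubc-3 at 43.0, and ubl-1, which encodes a ubiquitin-like fusion, at 43.5.

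Transport and folding genes followed. Nuclear pore genes were 5 of 26 (19.2%, 6.55 to 39.4), with npp-13 at 44.0, npp-8 at 42.9 and npp-20 at 33.1. Membrane traffic genes were 6 of 55 (10.9%, 4.11 to 22.2), with sec-61.G first, then copb-2, a coat subunit of vesicles from the Golgi, at 55.5 and sec-24.1, a cargo adaptor of vesicles leaving the endoplasmic reticulum, at 51.9. Chaperone genes were 5 of 65 (7.69%, 2.54 to 17.0), an interval that includes 2.77%, with the DnaJ gene dnj-9 at 84.5, hsp-3, an Hsp70 of the endoplasmic reticulum, at 57.2, and hsp-1, the cytosolic Hsp70, at 53.7. cdc-48.1, the ATPase that pulls ubiquitinated proteins out of complexes, was on no list and had 252 pooled, 59.7 in replicate 1 and 190 in replicate 2.

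Nuclear functions were mixed, and of these lists only the interval of the first stands above 2.77%. Cell cycle and DNA replication genes were 4 of 32 (12.5%, 3.51 to 29.0), with cdk-7, a kinase of the transcription factor TFIIH, at 51.7, the replicative helicase subunit mcm-4 at 44.0, and cdk-12, a kinase of the RNA polymerase II tail, at 37.6. Splicing factor genes were 4 of 48 (8.33%, 2.32 to 20.0), with the snRNP protein genes snrp-40.1 at 60.1 and snrp-3 at 46.8 and the SR protein gene rsp-6 at 59.5. RNA polymerase, Mediator and general factor genes were 4 of 69 (5.80%, 1.60 to 14.2), led by the polymerase subunit rpb-11 at 121, with the Mediator subunit mdt-22 at 41.8 and rpb-8 at 31.2. Histone genes were 2 of 72 (2.78%), the histone H4 gene his-37 at 180 and the linker histone gene his-24 at 57.7. The genes of SNAPc subunits held no member (0 of 7, which allows up to 41.0%), and neither snpc-4 nor unc-119 was a member.

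Among the large families, chemoreceptor, F-box and C-type lectin genes were rarely nearest to a member. Chemoreceptor genes were 1 of 1308 (0.0765%, interval 0.00194 to 0.425), srh-2 at 40.3. F-box genes were 2 of 322 (0.621%, 0.0753 to 2.23), fbxa-72 at 39.0 and fbxb-72 at 38.5. C-type lectin genes were 1 of 240 (0.417%, 0.0105 to 2.30), clec-140 at 30.8. For these 3 families the upper bound lay below 2.77%, as it did for neuropeptide and insulin genes (0 of 140, up to 2.60%). Collagen genes, the cuticle list, were 1 of 156 (0.641%, 0.0162 to 3.52), col-94 at 29.6, and cytochrome P450 genes 1 of 74 (1.35%, 0.0342 to 7.30), cyp-13A2, and both intervals include 2.77%. Nuclear hormone receptor genes were 7 of 269 (2.60%, 1.05 to 5.29), close to the figure for all genes. They were led by nhr-1 at 61.3, nhr-49, a regulator of fat metabolism, at 51.6 and nhr-40 at 38.3. Of the ceh homeobox genes 1 of 63 was a member, ceh-39 (1.59%, 0.0402 to 8.53). Small lists of tissue markers held 1 of 11 for body-wall muscle (the actin gene act-4 at 32.9), 1 of 11 for the germline (mes-2, a histone methyltransferase, at 60.1) and none of 10 for intestine, 11 for neurons and 10 for hypodermis.

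**Figure D2:**
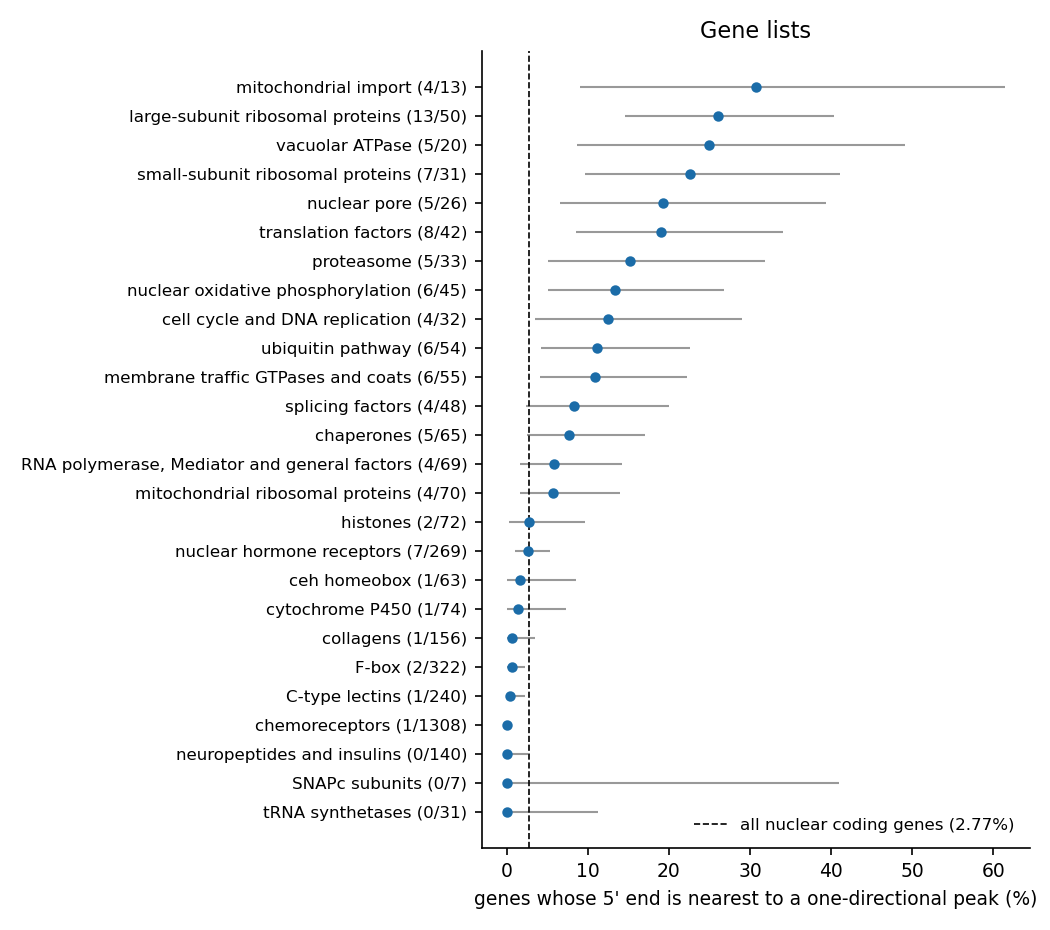
Percentage of the genes of each list, without the tissue marker lists, whose 5' end was nearest to a one-directional peak. Exact 95% intervals are drawn, with the counts beside each name. The dashed line is the 2.77% of all nuclear coding genes; mitochondrial import (30.8%) and large-subunit ribosomal proteins (26.0%) stand at the top, and neuropeptides, SNAPc subunits and tRNA synthetases are at 0.

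Most members had moderate signal. The pooled signal ran from 28.0 to 1054, with quartiles of 34.7 and 60.0 and a median of 43.5, and 35 members passed 100 (6.25%, interval 4.39 to 8.59). Divergent peaks had a median of 44.7, with 28 over 100 (8.05%, 5.41 to 11.4), peaks away from coding 5' ends 40.9 and peaks beside small RNA genes 52.1. The median log2 signal of members minus that of divergent peaks was -0.04 in the pooled list, 0.09 in replicate 1 and -0.07 in replicate 2. The sign thus differed between the replicates.

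**Figure D3:**
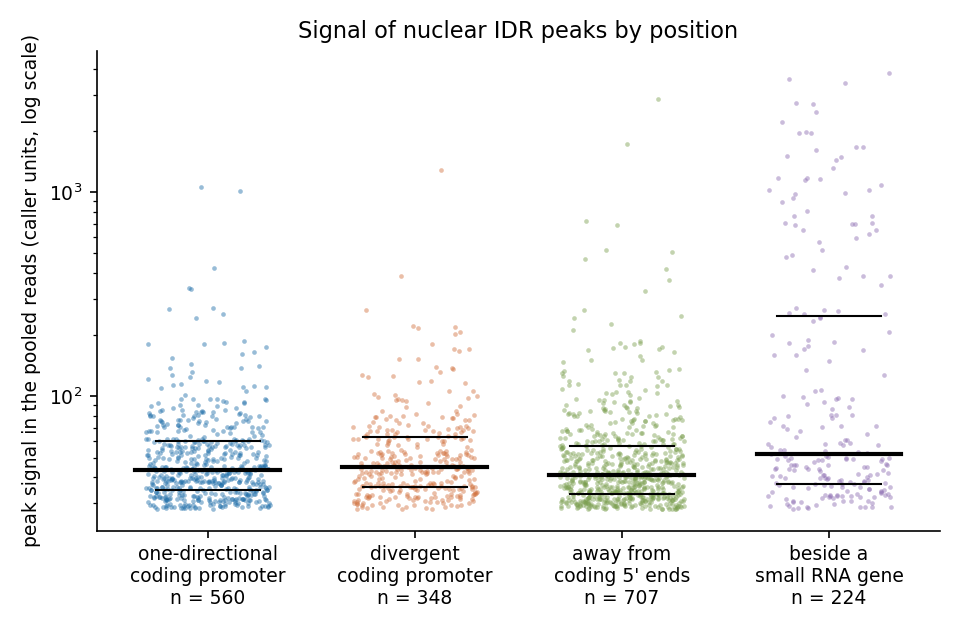
Pooled signal of the 1839 nuclear IDR peaks on a log axis, 1 point per peak, by position relative to genes. Thick lines are medians and thin lines quartiles; the one-directional and divergent medians are 43.5 and 44.7, and peaks beside small RNA genes spread highest, up to 3852.

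Beyond the genes with the snRNA-type pattern, the strongest members were a mixed set. W01D2.3, a gene with a sequence name only, had 2 members on chromosome II of ce11, with summits at 14804456 and 14804707 and pooled signals of 1009 and 336, 147 and 398 bp upstream, 46 bp from the noncoding gene W01D2.7 and 88 bp from W01D2.9. Both entries have the same peak bounds, so the overlap match gave both the same strongest replicate peak, at 208 in replicate 1 and 824 in replicate 2. Whether the replicates hold 2 summits there was not examined. npr-23, a receptor gene of the neuropeptide receptor family, had 426 pooled, 126 in replicate 1 and 303 in replicate 2, 132 bp upstream of its 5' end and inside an intron of another gene. T28D9.11, also known by a sequence name only, had 187, 48.4 and 138, with its summit (chromosome II, 6491903) 90 bp downstream in a coding exon and 33 bp from the noncoding gene T28D9.13. In all, 51 members (9.11%) had an unclassified noncoding RNA gene within 250 bp, with a median signal of 49.9 against 43.0 for the other 509. The part of these noncoding genes in the signal was not tested. Other genes with 2 members were lgg-2, an autophagy gene of the LC3 family (109 and 42.2), egl-30 and gsa-1, which encode G protein alpha subunits (83.5 and 54.1, and 38.1 and 28.0), gldi-8 (79.7 and 44.8), Y65A5A.2 (41.6 and 29.1) and ZK112.4 (32.8 and 29.0).

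Summits lay mostly upstream of the gene. Of the 560, 502 were upstream of the nearest 5' end (89.6%, interval 86.8 to 92.0), at a median of -173.5 bp with quartiles of -284.5 and -84.75 bp. The most filled 100 bp stretch was 101 to 200 bp upstream, with 168 members, followed by 201 to 300 bp with 114 and 1 to 100 bp with 98. Downstream, 27 members lay within the first 100 bp and 8, 10, 7 and 6 in the next 4 stretches. Divergent peaks lay closer, at a median of -143.5 bp with 96.3% upstream (93.7 to 98.0), and divergent peaks are bounded by a gene on both sides by definition. Outside candidates lay at a median of -64 bp with 58.4% upstream (57.2 to 59.6). Peaks were 310 bp wide for 517 members and 78 to 666 bp over all. From the coding start the member summits lay at a median of -217.5 bp.

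**Figure D4:**
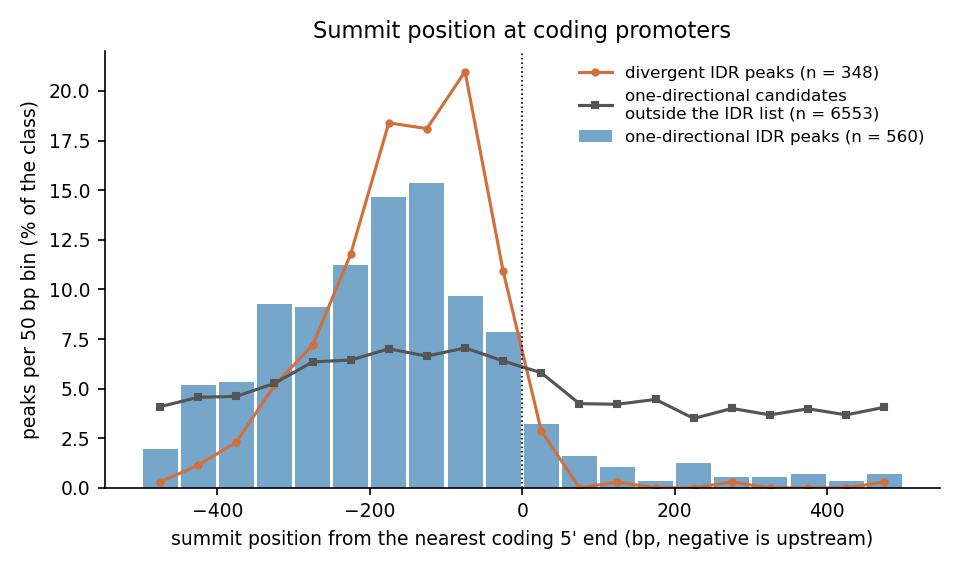
Share of each class per 50 bp of distance from the nearest coding 5' end, negative being upstream. One-directional IDR peaks (bars) centre at a median of -173.5 bp, divergent IDR peaks (circles) nearer at -143.5 bp, and one-directional candidates outside the list (squares) spread over both sides with a median of -64 bp.

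Between protein-coding genes lay 435 of the summits (77.7%), in introns 77, in untranslated exons 37 and in coding exons 11. Of divergent peaks 91.7% lay between genes, and of outside candidates 40.7%. The nearest 5' end was the outermost one of its gene for 495 members and an internal one for 65, where 52 summits were intronic. The next gene upstream was on the same strand for 299 members, at a median gap of 612 bp, and on the opposite strand for 241, at 2817 bp. The wide gap on the opposite strand follows in part from the rule, which bars close divergent pairs. The median signals of these groups were 44.0 and 43.0.

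Members were spread over the chromosomes, with 80 to 104 on each. The X chromosome held 101 (18.0%, interval 14.9 to 21.5), against 13.7% of coding genes, 16.1% of outside candidates and 28.6% of IDR peaks away from coding 5' ends. Chromosome V held 100 (17.9%, 14.8 to 21.3), against 25% of coding genes and 23.3% of outside candidates, and chromosome I held 104 (18.6%, 15.4 to 22), against 14.4% and 15.1%. On the X chromosome divergent IDR peaks were rare, with 10 of 348 (2.87%, 1.39 to 5.22), and so were divergent candidates outside the list, with 44 of 707 (6.22%, 4.56 to 8.26). X-linked members include rpl-11.2, ucr-2.2, gfi-3 and nhr-1.

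Nearly all members were found again in each replicate list. A replicate 1 peak overlapped 529 (94.5%, interval 92.2 to 96.2) and a replicate 2 peak 558 (99.6%, 98.7 to 99.96), where all nuclear IDR peaks had 94.8% and 99.6%. The pooled list was made from these same replicates, and the IDR step used them, so the overlap is not independent of membership. Both replicates had a peak at 527 members, and there the log2 signals had a Pearson correlation of 0.60 and the signals a Spearman correlation of 0.44, given as a description across peaks that share libraries. The replicate summits were a median of 24 bp apart, and 414 of the 527 pairs lay within 50 bp. A replicate 1 peak was present at 99 of the 100 strongest members and at 84 of the 100 weakest.

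The 31 members without a replicate 1 peak had a median pooled signal of 32.1. The strongest were agt-2 at 79.0, a DNA alkyltransferase gene with 77.6 in replicate 2 and its summit 375 bp downstream of the 5' end, hsp-1 with 54.9 in replicate 2, and lin-28 at 53.3, an RNA-binding protein gene that times larval cell fates, with 42.0 in replicate 2. Without a replicate 2 peak were chmp-7, a gene of the ESCRT membrane remodelling machinery, at 53.7 pooled and 11.3 in replicate 1, and the homeobox gene ceh-39 at 35.4 and 6.17. The replicate ranks among members were farthest apart at zip-2, a bZIP transcription factor gene, with rank 57 in replicate 1 (signal 21.6) and 526 in replicate 2 (13.8). F56C9.10 followed with ranks 86 and 522, and ZK1193.2 with 88 and 514. All 3 ranked higher in replicate 1.

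**Figure D5:**
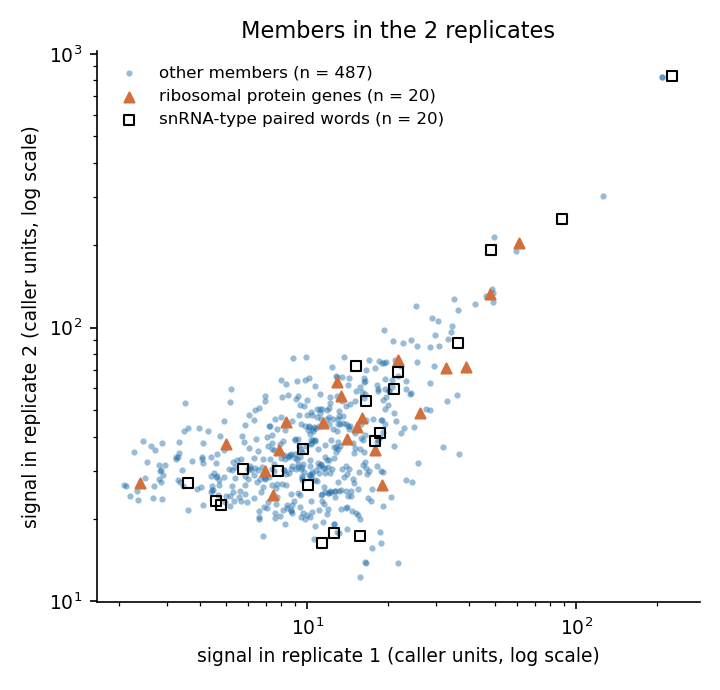
Signal of the 527 members with a peak in both replicates, on log axes, replicate 1 against replicate 2, in the units of each list. Ribosomal protein genes (triangles) and members with the snRNA-type pattern (squares) lie along the cloud of the other members, and C17G10.10 lies at the top right at 227 and 831, beside the points of W01D2.3.

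The limits of the rule fell as follows. The farthest from a 5' end was K12H4.5 at 497 bp with a signal of 85.0, and the peak at srg-61, at 503 bp with 30.1, was just outside. ZK1193.2 was 251 bp from the nearest small RNA gene with a signal of 29.6, and the barred peak nearest to this limit was at hsp-12.6, 184 bp from the piRNA gene 21ur-14949 with 36.8. C50B6.3, with a signal of 67.7, had its opposite-strand 5' end 1001 bp away, and R12C12.6, with 45.4, at 989 bp counted as divergent. The lowest member signal was 28.0 at gsa-1, and the strongest one-directional candidate outside the list, at mcm-2, rounded to 28.0 as well.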

How the data were processed

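SNPC-4 ChIP-seq peak lists of 2 biological replicates (1 group) and of their pooled reads were used as deposited on ce11. Per the deposited description files, the authors called peaks against a control alignment and ran IDR. Names and versions of the aligner and peak caller: not given in the sources used here. Peak signal was used unchanged as deposited, with the summit offset. Whether it was scaled to depth is not stated.

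Gene positions came from Ensembl release 115 (WBcel235) and bases from the RefSeq genome of that assembly. Both replicates were matched by an overlap of at least 1 bp, taking the strongest overlapping peak. Computation ran in Python 3.11.15 with pandas 2.3.3, scipy 1.17.1, numpy 2.4.6 and, for plots, matplotlib 3.10.9, and the class and sequence steps were checked on simulated peaks. There was no group to compare, so values are counts, medians and exact intervals.

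Members and lists were chosen with earlier results of these data known. Named genes were the 12 strongest members, the 3 strongest of each list, the strongest 3 lacking a replicate, the 3 with replicate ranks farthest apart, those at the limits, genes with most members and the strongest with each sequence. The other genes with a printed sequence or the snRNA-type pattern, ndus-8, nduf-11 and the ribosomal protein genes rpl-38, rpl-29, rla-0 and rps-25 were named after their values were seen. Alternatives changed the windows, the 5' end definition, the overlap, the IDR list and the replicate that gave summit and signal.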

Additional observations from a re-analysis of the deposited data

How the results depend on the processing

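Of 82 alternative values over 8 results, 67 stayed within the error of the main value or, for counts, within 1.5 times of it, and 15 moved. For the median distance and the signal difference that error was the standard deviation of the 2 values from single replicates. The share with a summit upstream did not move in its 10 alternatives. Keeping the stronger of 2 equal parts of the IDR list gave 277 members, a replicate 1 share of 98.2% and a median distance of -176 bp. A promoter window of 250 bp gave 371 members, 7 ribosomal protein genes in place of 20, and a median of -135 bp, since it leaves out summits farther away. An overlap of 50% of both peaks gave 88.75% for replicate 1 and 97.5% for replicate 2, and summits within 100 bp gave 90.2% for replicate 1. One 5' end per gene moved the median to -168 bp, and leaving out peaks beside unclassified noncoding RNA genes moved it to -169 bp. CTGCGTCT was in 8.93% of members within 25 bp and 18.2% within 100 bp. Each replicate's summits and signals were also taken alone, with the members kept as chosen from both. The member selection was not repeated, so the counts in these settings only show overlap with that replicate's list. The medians were -173 to -176 bp, and the log2 signal difference to divergent peaks was -0.066 to 0.094. That difference also turned to 0.00256 with one 5' end per gene, so no direction is given for it. No paired analysis was possible because the series has 1 group. Depth is unknown, no control strain was analysed here, and signal scales may differ between lists, which limits all comparisons to counts and to ranks within a list.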
